A study of Mus musculus with 8 samples.

Results

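A set of 6 genes of the paracrine exchange between the oocyte and its granulosa cells were followed in RNA-seq libraries of mouse germinal vesicle (GV) oocytes that lacked CNOT7 and CNOT8, the catalytic deadenylase subunits of the CCR4-NOT complex, and in control oocytes. They were the rows of the count table named Gdf9, Bmp15, Bmp6, Fgf8, Kit and Kitl, which is 6 of 46078 genes. They were chosen by name for their role, with earlier results of these data known. GDF9 and BMP15 are TGF-beta family ligands secreted by the oocyte that act on the surrounding granulosa and cumulus cells, where they keep the cumulus phenotype and promote follicle growth. BMP6 is a further ligand of this family made by oocytes, and FGF8 is a fibroblast growth factor from the oocyte that acts with BMP15 on cumulus cell metabolism. KIT is a receptor tyrosine kinase on the oocyte surface, and its ligand KITL comes mainly from granulosa cells and signals through PI3K and AKT to FOXO3 during oocyte growth.

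There were 2 groups of 4 libraries, with 100 GV oocytes per library. In the CNOT7&8 KO group, floxed alleles of Cnot7 and Cnot8 had been deleted with Zp3-Cre, a Cre driven by an oocyte promoter that is active in growing oocytes, so the deletion was directed to the oocyte and not to the follicle cells. The control group was of the Zp3-Cre line. Females were 4 weeks old on a C57BL/6J background and had received PMSG, a gonadotropin that stimulates follicles, 48 h before collection. Cumulus cells had been taken off with hyaluronidase and pipetting, and GV oocytes were held in dbcAMP, which prevents meiotic resumption. How many females gave the oocytes of a library, and on which days, is not given in the sources used here, so p-values measure only the spread between these libraries.

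Control libraries held 14943671 to 44092144 counts and KO libraries 8639444 to 26784110, so that 3 counts, the smallest signal taken as detected, made between 0.0680 and 0.347 CPM (read counts relative to the library total). Cnot8 fell from 168 ± 20.01 to 35.2 ± 1.40 CPM (SD, n = 4), whereas Cnot7 was at 933 CPM in control and 719 CPM in KO oocytes. Counts cover whole genes and include reads from any part that the deletion leaves. All 14 oocyte markers on a fixed list were detected in every library, among them Zp3 with means of 1717 CPM in control and 1325 CPM in KO oocytes. Control replicate 1 and KO replicate 4 stood apart from the other libraries of their groups, in a shared direction (r = 0.37 between their deviations in log2 CPM), and the differences of the 6 genes are given with and without them.

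The genes lie on different chromosomes of the GRCm38 mouse genome, and all are protein-coding. Gdf9 (ENSMUSG00000018238) spans chr11:53431023-53437904 on the plus strand, Bmp15 (ENSMUSG00000023279) chrX:6314107-6320721 on the minus strand, and Bmp6 (ENSMUSG00000039004) chr13:38345107-38500302 on the plus strand. Fgf8 (ENSMUSG00000025219) spans chr19:45736798-45742915 on the minus strand, Kit (ENSMUSG00000005672) chr5:75574916-75656722 on the plus strand, and Kitl (ENSMUSG00000019966) chr10:100015630-100100416 on the plus strand. In the GENCODE vM21 annotation, Bmp6 shares 224 exonic bases with Txndc5 on the opposite strand, and since the strand setting of the counting is not stated, some reads there cannot be assigned with certainty. No other member shares exonic bases with a gene of the table.

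Because CNOT7 and CNOT8 shorten poly(A) tails, the longest annotated 3′UTR of each gene was searched on its own strand for the cytoplasmic polyadenylation element (CPE, TTTTAT), through which CPEB controls tail length and translation in oocytes. The CPE nearest to the 3′ end is shown for the 5 genes that have one, 5′ to 3′, with the element in capitals and its flanks in lower case.
Gdf9: agagtgctgtggTTTTATgtgacggaagaa
Bmp15: gctattgactagTTTTATcacattctctct
Bmp6: atttattgtctaTTTTATatccattttgct
Kit: cctgaaaatattTTTTATatatacagtaac
Kitl: ctaaataaagaaTTTTATgcaccatcataa
The windows lie at chr11:53437854-53437883 for Gdf9, chrX:6314619-6314648 (minus strand) for Bmp15, chr13:38500212-38500241 for Bmp6, chr5:75656566-75656595 for Kit and chr10:100100386-100100415 for Kitl, all in GRCm38 and all in the 3′UTR.

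The spacing of these elements differed between the genes. Gdf9 has a 3′UTR of 360 bases with 1 CPE at position 322, numbering the base that follows the stop codon as 1, and the polyadenylation signal AATAAA at position 338. Bmp15 has 3 CPEs in 1523 bases, the last at position 994, and its distal AATAAA is at position 1496. Bmp6 has 2 CPEs in 1234 bases and no AATAAA in the annotated 3′UTR, which holds the other polyadenylation signal searched, ATTAAA, at positions 364 and 1081. The 2177 bases of Kit hold 3 CPEs and 5 copies of the Pumilio element TGTANATA, the motif of another family of translational repressors. This element also occurs in Kitl (4 copies) and Bmp6 (1 copy). It was found in 33.7%, 52.4% and 23.6% of 3′UTRs similar in length to those of Kit, Kitl and Bmp6. In Kitl, with 4435 bases, the last of 4 CPEs is at position 4417, after the last AATAAA at position 4408. The annotated 192 bases of the Fgf8 3′UTR contain neither TTTTAT nor AATAAA, which says only that these letters are absent from this window. A CPE occurred in 56.2% of 15167 mouse 3′UTRs. Among 3′UTRs within 1.25-fold of the same length the share was 25.7% for Gdf9, 65.2% for Bmp15, 57.7% for Bmp6, 75.4% for Kit, 90.5% for Kitl and 15.4% for Fgf8. A match is a description of the sequence, and no poly(A) tails or binding were measured in these libraries.

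The transcripts of the oocyte-secreted factors and of the KIT pair did not move together in CNOT7&8 KO oocytes. Kitl rose 2.71-fold, Fgf8 fell to 29.6% and Kit to 50.8% of the control mean, and Bmp6 fell by 0.37 on the log2 scale, whereas Gdf9 and Bmp15 did not pass the test. Thus 1 of the 6 genes was called higher and 3 were called lower by edgeR's quasi-likelihood test (adjusted p of at most 0.05), beside 31.2% of all 19241 genes tested called higher and 24.1% called lower. The libraries of the groups did not overlap for 4 of the 6, beside 48.4% of all genes. The share was 55.6% among genes with a mean over the 8 libraries between 10 and 100 CPM (Bmp6, Fgf8 and Kitl). It was 57.3% among those of at least 100 CPM (Gdf9, Bmp15 and Kit). With the further requirement of at least a 2-fold change, Kitl was an upregulated and Fgf8 a downregulated DEG, as were 23.8% and 6.56% of all genes, and Kit missed that limit narrowly. In pools of oocytes, fewer oocytes with a transcript and less of it per oocyte cannot be told apart.

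**Figure D1:**
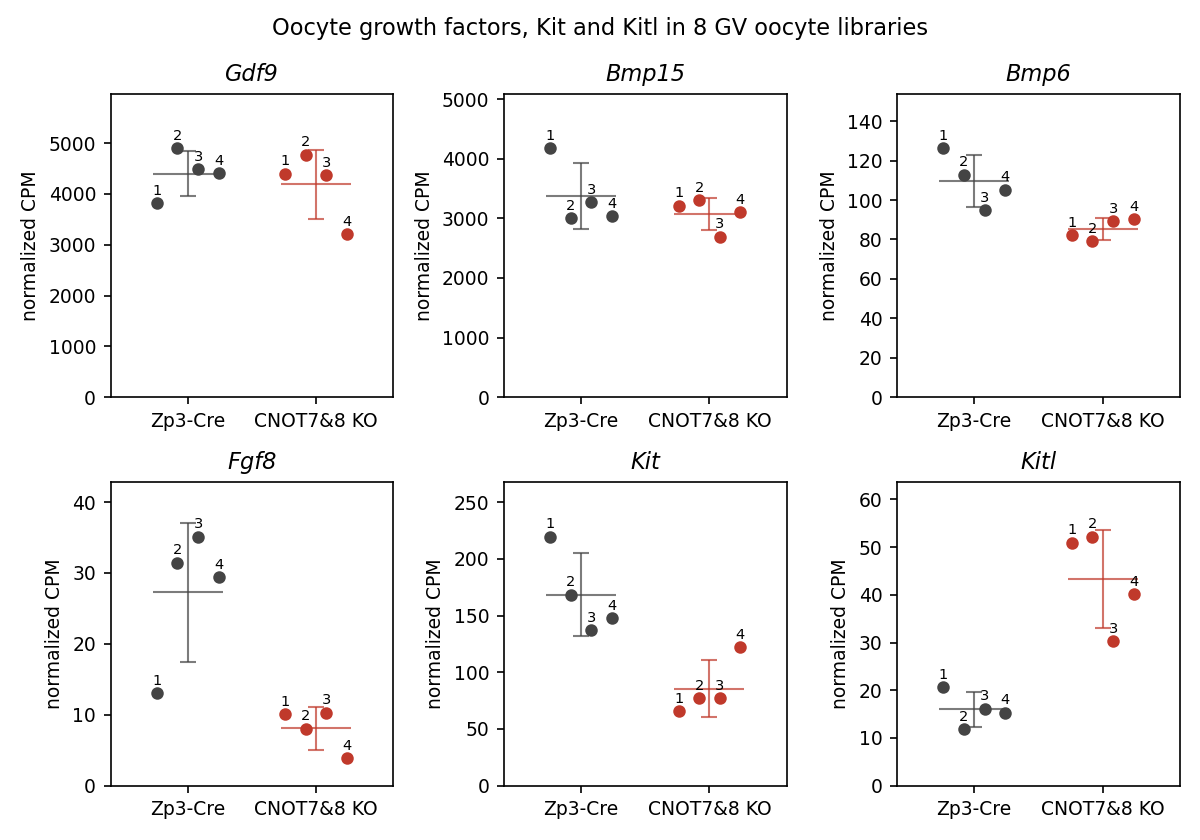
TMM-normalized CPM of each gene in the 4 Zp3-Cre (grey) and 4 CNOT7&8 KO (red) libraries, from 0 on a linear axis that differs between panels. Points are libraries numbered by replicate, horizontal lines are group means and bars are SD. Gdf9 and Bmp15 overlapped between the groups, Kitl was at 11.9 to 20.7 CPM in control and 30.3 to 52.2 CPM in KO libraries, and Fgf8 and Kit were lower in every KO library.

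Gdf9, the ligand required for follicles to pass the primary stage, was at 3813, 4899, 4491 and 4403 CPM in control replicates 1 to 4 and at 4402, 4771, 4365 and 3207 CPM in KO replicates 1 to 4. KO replicate 4 had the lowest value, and the other 3 KO libraries lay within the range of the controls. The means were 4401 ± 448 and 4186 ± 678 CPM (SD, n = 4 libraries in each group). The log2 fold change was -0.07 (SE 0.13, 95% interval -0.36 to 0.22, edgeR adjusted p = 0.667; exact permutation p = 0.571).

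Bmp15, an X-linked partner of Gdf9 with which it can form heterodimers, was at 4175, 3003, 3269 and 3033 CPM in the control libraries and at 3210, 3303, 2694 and 3106 CPM in the KO libraries. Control replicate 1 was the highest of the 8, and the remaining 7 fell into a common range. Its log2 fold change was -0.13 (SE 0.13, 95% interval -0.40 to 0.14, edgeR adjusted p = 0.399; exact permutation p = 0.514). The intervals of both ligands lie inside a 2-fold change in either direction. Among the 2414 genes whose mean reached 100 CPM, the median log2 fold change was -0.37, and 55.2% were called lower and 8.37% higher.

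Bmp6 was at 126, 113, 94.99 and 105 CPM in control libraries and at 82.3, 79.1, 89.3 and 90.3 CPM in KO libraries. All 4 KO values were below the lowest control value, by a small margin. The change was -0.37 on the log2 scale (SE 0.12, 95% interval -0.62 to -0.12, edgeR adjusted p = 0.0171, and exact permutation p = 0.0286, the smallest that the 70 assignments of 8 libraries allow). With a mean just under 100 CPM over the 8 libraries, Bmp6 lay at the upper edge of the genes of 10 to 100 CPM. Their median log2 fold change was -0.17, and 36.8% were called lower. Among genes of at least 100 CPM the median was -0.37, the same as the change of Bmp6 at this rounding, and 55.2% were called lower. With library totals alone as the scale the change of Bmp6 was -0.08 (edgeR adjusted p = 0.536), so the call depended on the scaling. Txndc5, the gene with which Bmp6 shares exonic bases, went from 448 ± 8.79 to 267 ± 19.4 CPM (log2 fold change -0.74), and whether its reads contribute to the Bmp6 value was not tested.

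Fgf8 was at 13.05, 31.4, 35.1 and 29.4 CPM in control libraries and at 10.1, 8.02, 10.3 and 3.85 CPM in KO libraries. Every KO library was below every control library, but control replicate 1 was much closer to the KO values than the other 3 controls were. The means were 27.3 ± 9.76 and 8.07 ± 2.99 CPM (SD, n = 4), and the log2 fold change was -1.77 (SE 0.34, 95% interval -2.51 to -1.04, edgeR adjusted p = 0.000851; exact permutation p = 0.0286). These values rest on 93 to 637 counts per library, the lowest of which was the smallest count of any of the 6 genes. Of the genes with a mean between 10 and 100 CPM, 36.8% were called lower, and their median log2 fold change was -0.17.

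Kit was at 220, 168, 137 and 148 CPM in control libraries and at 65.8, 77.1, 76.9 and 122 CPM in KO libraries. KO replicate 4 was the highest KO library and approached the lowest control, and control replicate 1 was the highest control. The means were 168 ± 36.6 and 85.5 ± 25.0 CPM (SD, n = 4), and the log2 fold change was -0.97 (SE 0.20, 95% interval -1.40 to -0.54, edgeR adjusted p = 0.00130; exact permutation p = 0.0286).

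Kitl moved the other way. It was at 20.7, 11.9, 16.1 and 15.3 CPM in control libraries and at 50.9, 52.2, 30.3 and 40.1 CPM in KO libraries. The lowest KO library was above the highest control library, and the means were 16.01 ± 3.63 and 43.4 ± 10.3 CPM (SD, n = 4). The log2 fold change was 1.43 (SE 0.21, 95% interval 0.98 to 1.88, edgeR adjusted p = 0.000108; exact permutation p = 0.0286), whereas 25.7% of the genes between 10 and 100 CPM were called higher.

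CPM values are shares of a library, and the amount of mRNA per oocyte was not measured, so the scale of the libraries bears on small differences. TMM factors were 0.849 to 0.943 for the controls and 1.07 to 1.14 for KO libraries. Without them, the median log2 fold change of all genes was 0.29 higher, and 7744 genes were called higher and 2618 lower instead of 5997 and 4631. With TMM factors computed on genes of at least 10 CPM, the median was 0.26 higher, with 7589 and 2865 calls. Upper quartile scaling raised the median by 0.10, and gave 6568 and 3902 calls. Relative to these shifts the 6 genes kept their order. The log2 fold change of Fgf8 was between -1.77 and -1.505 over the 5 scalings, that of Kit between -0.97 and -0.68 and that of Kitl between 1.43 and 1.72, and all of these passed the threshold. Gdf9 and Bmp15 took positive values of 0.21 and 0.16 with library totals alone and of 0.17 and 0.13 with TMM on genes of at least 10 CPM, and Gdf9 was at 0.02 with upper quartile scaling, none of which passed.

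**Figure D2:**
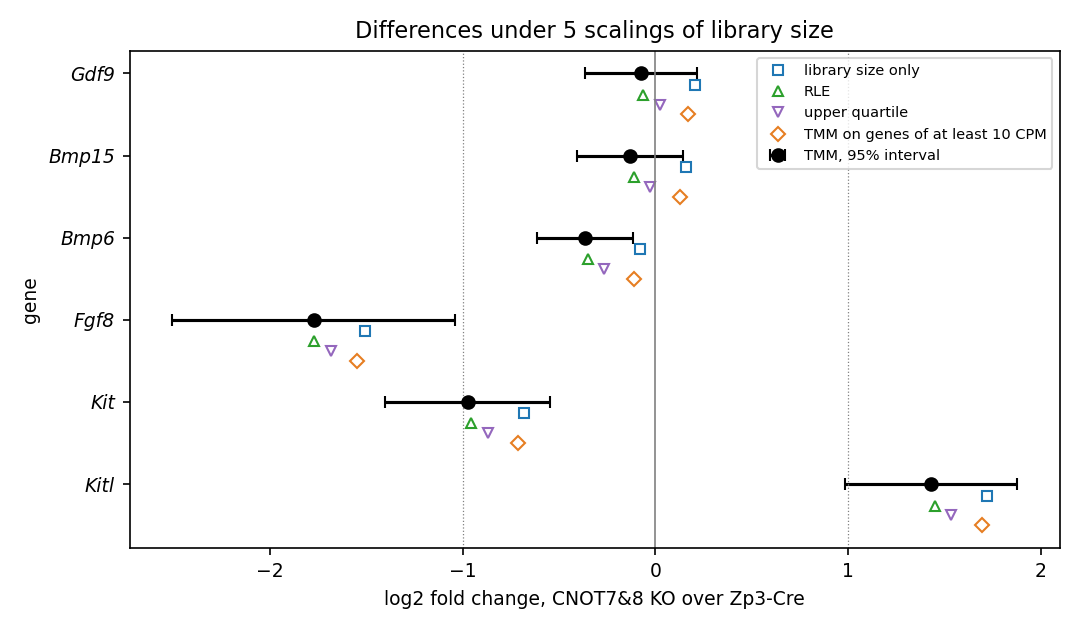
Log2 fold change of each gene, CNOT7&8 KO over Zp3-Cre, with TMM (black circles, bars are 95% intervals) and with 4 other scalings (open symbols); dotted lines mark a 2-fold change. Open symbols shift to the right together, which moves Gdf9 and Bmp15 across 0 and leaves Fgf8, Kit and Kitl on their side.

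Ratios of counts within a library do not depend on this scale. Kit had 8.48 to 14.1 counts for each count of Kitl in control libraries and 1.29 to 3.04 in KO libraries, so the groups did not overlap. The mean log2 ratio was lower by 2.42 (KO minus control -2.42, exact permutation p = 0.0286, adjusted over 4 ratios 0.0571). Fgf8 relative to Gdf9 also separated the groups, with a log2 difference of -1.67 (exact permutation p = 0.0286, adjusted 0.0571). With 4 libraries against 4 no smaller p was possible, and neither adjusted value passes 0.05. The ratio of Bmp6 to Gdf9 differed by -0.28 on the log2 scale with overlapping groups (exact permutation p = 0.257, adjusted 0.343). The ratio of Gdf9 to Bmp15, on which the balance of homodimers and heterodimers could depend, differed by 0.04 (exact permutation p = 0.914). It was 1.37 to 1.63 in 6 of the libraries, 0.913 in control replicate 1 and 1.03 in KO replicate 4.

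To compare genes with each other, CPM was divided by the length of the merged exons in kilobases. On this scale Gdf9 was at 2167 ± 221 CPM per kb in control oocytes, the 7th highest of 19126 genes with a length, and Bmp15 at 1101 ± 180 CPM per kb ranked 25th. In KO oocytes these genes ranked 5th and 20th. The control level of Bmp6 was 28.2 ± 3.38, of Fgf8 20.2 ± 7.23, of Kit 18.9 ± 4.11 and of Kitl 2.71 ± 0.615 CPM per kb (SD, n = 4). Gdf9, Bmp15 and the following 3 genes were separated by gaps in both groups, but Bmp6, Fgf8 and Kit overlapped in the control libraries and have no order among themselves. In KO libraries Bmp6 was at 20.3 to 23.2, Kit at 7.38 to 13.7, Kitl at 5.12 to 8.83 and Fgf8 at 2.85 to 7.63 CPM per kb. There Bmp6 was above Kit in all libraries, and Kit, Kitl and Fgf8 overlapped. Among all genes Kitl went from rank 8449 to 5638, Kit from 3152 to 4790 and Fgf8 from 2971 to 6358. The merged exons of Kit (8911 bases) are longer than its longest transcript (5241 bases), and with the latter the control level of Kit would be 32.1 CPM per kb, above Bmp6.

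Control replicate 1 and KO replicate 4 moved several of these genes in the same direction. Relative to the mean of the other 3 libraries of its group, Fgf8 was lower by 1.28 in control replicate 1 and by 1.27 in KO replicate 4 on the log2 scale (-1.28 and -1.27), and Gdf9 differed by -0.27 and -0.49. Kit was higher by 0.54 and 0.74. Kitl was higher by 0.53 in the control library and at -0.11 in the KO library, Bmp15 was at 0.43 and 0.02, and Bmp6 at 0.28 and 0.11. Fgf8 has the shortest of the 6 longest transcripts (1168 bases) and the highest GC content (62.8%), followed in length by Gdf9 (1793 bases), while Kit (5241 bases) and Kitl (5648 bases) have the longest. Over 8710 genes of at least 10 CPM, the deviation of these libraries correlated with transcript length at a Spearman rho of 0.35 and 0.43, against -0.38 to -0.13 in the other 6 libraries. Its correlation with GC content was -0.60 and -0.55, against -0.21 to 0.65. For the other 6 libraries, the mean that was subtracted includes control replicate 1 or KO replicate 4, so these correlations are not independent of each other. They are descriptions across genes of the same libraries, and the part of length and GC content in the values was not tested.

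**Figure D3:**
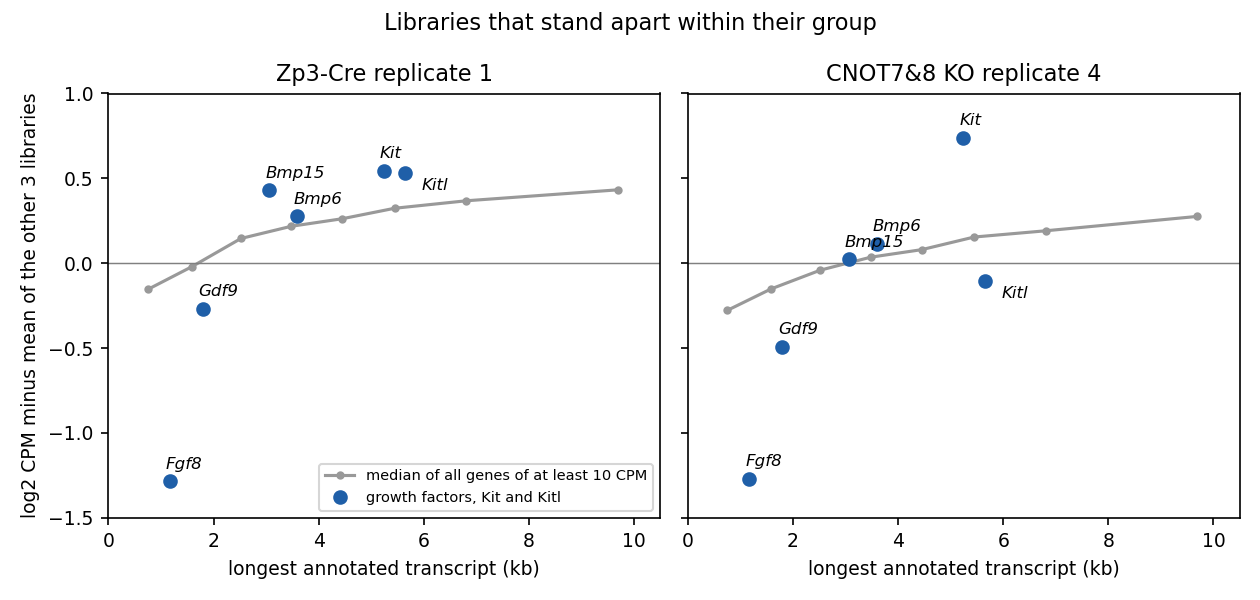
Log2 CPM in Zp3-Cre replicate 1 (left) and in CNOT7&8 KO replicate 4 (right) minus the mean of the other 3 libraries of the group, against the length of the longest annotated transcript in kb. Grey points are medians of all genes of at least 10 CPM in 8 bins of length, and blue points are the 6 genes. Fgf8 lies at -1.28 and -1.27, below the median of genes of its length, and Kit at 0.54 and 0.74 above it.

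Without both of these libraries, edgeR gave a log2 fold change of -1.76 for Fgf8 (adjusted p = 6.73e-07), -1.04 for Kit (adjusted p = 2.57e-06), 1.63 for Kitl (adjusted p = 1.49e-05) and -0.32 for Bmp6 (adjusted p = 0.0115). Gdf9 was at -0.03 and Bmp15 at -0.01, so all calls at an adjusted p of at most 0.05 were the same as with 8 libraries. Kit then also passed the 2-fold limit, which it missed with all 8. With KO replicate 4 as the only KO library, and the spread taken from the controls, Kitl was at 1.40 (edgeR adjusted p = 0.00414) and Fgf8 at -2.77 (edgeR adjusted p = 0.0130). In that fit, chosen after seeing the data, Kit was at -0.38 (edgeR adjusted p = 0.187) and Bmp6 at -0.21 (edgeR adjusted p = 0.356).

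Because granulosa cells are the main source of KITL in the follicle, markers of granulosa and cumulus cells were read in the same libraries. Of 18 markers, 17 were tested, 5 were higher (Fshr, Inha, Inhba, Nr5a2 and Fst) and 1, Cyp19a1, was lower, beside 31.2% and 24.1% of all genes. Without KO replicate 4, 9 were called higher. Summed over the 16 markers other than Cyp19a1 and Nr5a2, which were at 58.5 and 56.6 CPM in control oocytes, they made 24.9 to 33.1 CPM in control libraries. In KO replicates 1 to 3 the sum was 90.7, 87.0 and 70.9 CPM, and in KO replicate 4 it was 19.4 CPM, below all controls. With all 18 markers the sum was 129.5 to 162 CPM in control libraries and 249, 239, 211 and 182 CPM in KO replicates 1 to 4. KO replicate 4 was then above all controls, so its place depended on which markers were summed. Inha, the inhibin alpha subunit of granulosa cells, made up the largest part of the sum over 16 markers in KO replicates 1 to 3 and was at 38.4, 34.1, 26.5 and 4.77 CPM in the KO libraries against 4.44 to 10.002 CPM in controls. Foxl2, the granulosa transcription factor, had at most 1 count in any library, and Amh was at 0.0728 to 1.70 CPM. KO replicate 4, which had the lowest sum of the 16 markers, held Kitl at 40.1 CPM, above all control libraries. This library also stood apart by transcript length and GC content. What granulosa cells, transcript length or GC content contributed to the Kitl and marker values was not tested.

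**Figure D4:**
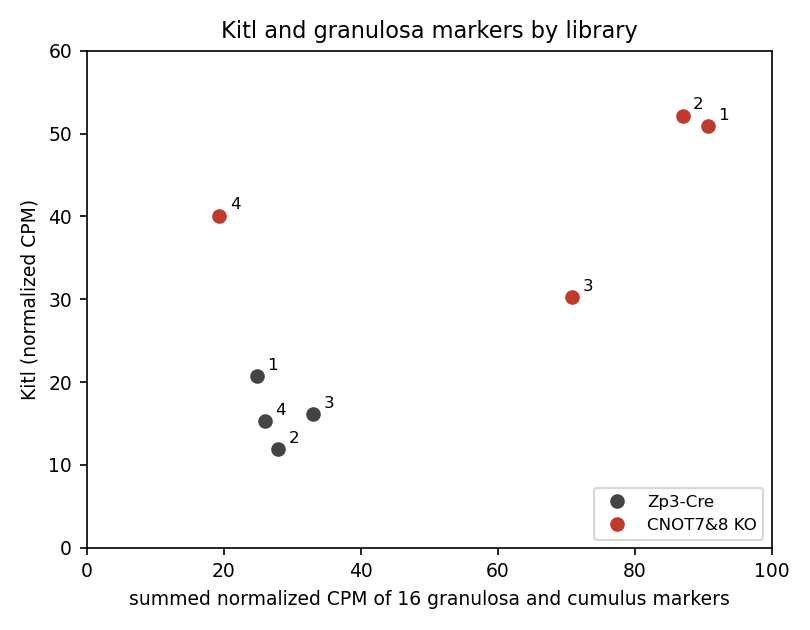
Kitl in normalized CPM against the summed normalized CPM of 16 granulosa and cumulus markers, in Zp3-Cre (grey) and CNOT7&8 KO (red) libraries, numbered by replicate. KO replicates 1 to 3 lie at 70.9 to 90.7 CPM of markers, and KO replicate 4 lies at 19.4 CPM of markers with Kitl at 40.1 CPM. With Cyp19a1 and Nr5a2 included, KO replicate 4 would be at 182 CPM of markers, above all controls.

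The genes whose log2 CPM over the 8 libraries was most like each member were read among 8728 genes of at least 10 CPM. For Gdf9 these were Pin1rt1 (Pearson r = 0.98), Pced1b and Tmem102, and for Bmp15 Exoc4 (r = 0.99), Zfp788 and Tmem29. Bmp6 was followed by Ubqln1 (r = 0.99), Cep120 and 9130011E15Rik, and Fgf8 by D10Jhu81e, Map3k6 and Lsm7, with r between 0.997 and 0.998. Kit was closest to Atad2b (r = 0.98), Arhgap19 and Gtf3c2, and Kitl to Pde1a (r = 0.99), Erc2 and Chuk. None of the 6 genes was among the 3 closest genes of another. These correlations are maxima over all of these genes measured in the same libraries, with the group difference and the libraries that stood apart included, and are given as a description.

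The receptors and signalling genes around these ligands were read from 9 lists. Their values are from oocytes freed of cumulus cells. Levels in the granulosa and cumulus cells, on which GDF9, BMP15 and FGF8 act, were not measured. Of 117 genes tested, 42 (35.9%) were higher and 17 (14.5%) lower in CNOT7&8 KO oocytes, beside the 31.2% and 24.1% of all genes. The median log2 fold change of all genes tested was 0.12. With library totals alone as the scale, 50 were higher and 9 lower.

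**Figure D5:**
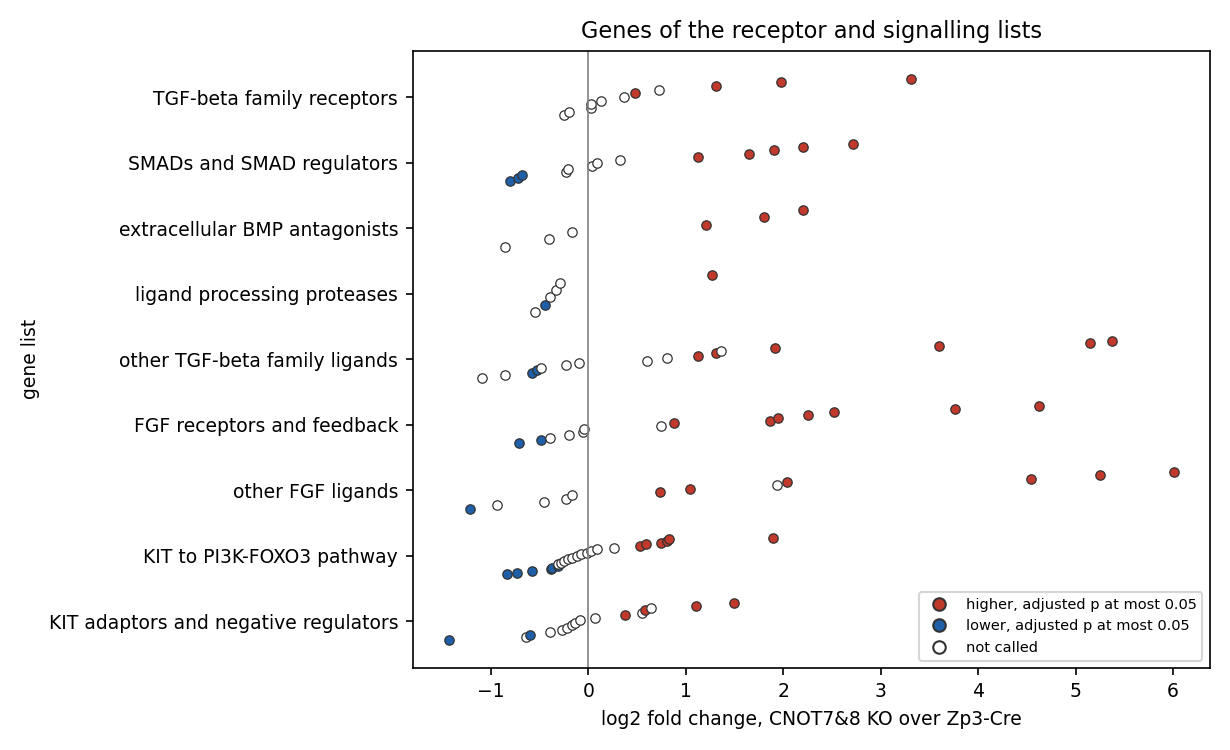
Log2 fold change, CNOT7&8 KO over Zp3-Cre, of each tested gene (point) in 9 lists, sorted within a list; red and blue points were called higher and lower by edgeR at an adjusted p of at most 0.05, and white points were not called. The list of the KIT to PI3K-FOXO3 pathway has 6 red and 6 blue points (2 genes were called lower with library totals alone), whereas the FGF receptor and feedback list has 7 red and 2 blue.

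Of 13 TGF-beta family receptors, 11 were tested, 4 were higher and 0 lower, with a median log2 fold change of 0.36. At an unadjusted p under 0.05, and by edgeR's exact test and DESeq2, 0 were lower as well. Tgfbr1, the type I receptor through which GDF9 signals, rose from 34.8 ± 12.1 to 137 ± 21.2 CPM (log2 fold change 1.97). Acvr2a, a type II receptor for activins that also binds BMP6, rose from 16.9 ± 5.23 to 42.2 ± 7.24 CPM, and Tgfbr3, a co-receptor, by 0.48 on the log2 scale. The receptors most directly tied to BMP15 and BMP6 were not called: Bmpr2 was at 0.02, Bmpr1a at 0.12, Bmpr1b at -0.25 and Acvr1 at 0.02. Bmpr1a was called higher without control replicate 1 (0.28), with library totals alone (0.42) and with TMM on genes of at least 10 CPM (0.39). Among 13 tested SMADs and SMAD regulators 5 were higher and 3 lower (median 0.09), and 8 were higher with library totals alone or TMM on genes of at least 10 CPM. Smad5, an effector of BMP receptors, rose from 19.7 ± 4.80 to 91.3 ± 14.2 CPM. The repressor Skil, the pseudoreceptor Bambi and Smad9 rose by 2.72, 1.90 and 1.12 on the log2 scale. Smad1, which acts beside Smad5, fell by 0.73.

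Extracellular BMP antagonists had 6 tested genes of 11, and 3 of them were higher (median 0.52). Twsg1 rose by 1.80 and Bmper by 1.20 on the log2 scale. Fst, which binds activins and is also a granulosa marker, was at 9.66, 13.2 and 5.61 CPM in KO replicates 1 to 3 and at 1.53 CPM in KO replicate 4, within the control range of 1.14 to 2.11 CPM. Of 6 tested proteases that process these ligands 1 was higher and 1 lower (median -0.36). The lower gene was Adam17, a sheddase that can release KITL from the cell surface, which fell from 509 ± 13.7 to 373 ± 16.4 CPM, a call that was lost with library totals alone (-0.17). Furin, a convertase that cleaves TGF-beta family precursors, was at -0.34 and not called. Of 16 tested ligands of the same family other than Gdf9, Bmp15 and Bmp6, 6 were higher and 2 lower (median 0.70), and 3 were higher without KO replicate 3 or with a filter of 1 CPM. Gdf11 rose from 6.75 ± 1.06 to 16.8 ± 1.90 CPM, and Tgfb2 and Tgfb3 fell by 0.58 and 0.53 on the log2 scale, though Tgfb3 was no longer called with library totals alone (-0.25) or TMM on genes of at least 10 CPM (-0.28). Of the other higher genes, Inha and Inhba are also granulosa markers, and Bmp4, Gdf6 and Mstn had means of 1.25, 0.201 and 0.188 CPM in KO oocytes. Bmp5, with 161 ± 23.5 CPM in control oocytes, was at -0.10 on the log2 scale and not called.

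For Fgf8, the list of FGF receptors and feedback genes had 14 tested genes of 16, of which 7 were higher and 2 lower (median 0.81). Fgfr2 fell from 106 ± 7.56 to 64.5 ± 4.94 CPM (log2 fold change -0.71), and Fgfr1 was at -0.20 and not called. Dusp6, a phosphatase of ERK and a target of FGF signalling, rose from 0.866 ± 0.225 to 5.11 ± 0.625 CPM, and the FGF-induced transcription factor Etv5 from 5.36 ± 0.569 to 19.5 ± 4.21 CPM. Spred1, an inhibitor of RAS, rose by 0.88 and the decoy receptor Fgfrl1 by 2.25 on the log2 scale. Of 12 tested FGF ligands other than Fgf8, 6 were higher and 1 lower (median 0.89). Fgf7 rose from 11.99 ± 1.28 to 24.6 ± 2.24 CPM, while Fgf10 fell from 6.95 ± 1.69 to 2.96 ± 0.712 CPM. Of the other higher ligands Fgf1 had a mean of 16.8 CPM in KO oocytes, and Fgf13, Fgf18, Fgf20 and Fgf21 had means between 0.384 and 0.767 CPM. Of the FGF ligands tested, Fgf8 and Fgf10 were thus the ones called lower.

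Downstream of KIT, all 23 genes of the PI3K to FOXO3 list were tested, and 6 were higher and 6 lower (median -0.12). The lower count was 3 without control replicate 1, without KO replicate 1 and with the replicate number as a block. It was also 3 with upper quartile scaling and with a filter of 1 CPM, and 2 with library totals alone or TMM on genes of at least 10 CPM. Foxo3, the transcription factor that holds primordial follicles dormant, fell from 491 ± 69.2 to 330 ± 11.9 CPM (log2 fold change -0.57). The kinase Akt1 fell by 0.83 and Pdpk1, the kinase that activates AKT, by 0.73 on the log2 scale, but the groups overlapped for Akt1, and its call was lost with library totals alone (-0.56) and with TMM on genes of at least 10 CPM (-0.60). Foxo4 rose by 1.90, Gsk3b by 0.83 and the regulatory subunit Pik3r3 by 0.81 on the log2 scale, and the catalytic subunit Pik3ca was at -0.25 and not called, but it was called lower without KO replicate 4 (-0.34) and without both libraries that stood apart (-0.21). Of 16 KIT adaptors and negative regulators, all tested, 4 were higher and 2 lower (median -0.11). The lower count was 1 with every other scaling tried, and it was also 1 when any of control replicates 2 to 4 or KO replicates 1, 2 or 4 was left out. Lyn, a SRC family kinase that associates with KIT, fell from 48.4 ± 5.37 to 17.9 ± 2.26 CPM (log2 fold change -1.43), the largest fall on this list. Sos1, which links GRB2 to RAS, rose by 1.498, Src by 1.10 and Grb2 by 0.37 on the log2 scale. The call of Src was lost without KO replicate 3 (0.75) and without control replicate 4 (0.98), and that of Grb2 without control replicate 2 (0.36) and without control replicate 3 (0.32).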

How the data were processed

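RNA of GV oocytes was measured in 8 libraries, 4 Zp3-Cre and 4 CNOT7&8 KO, grouped by the deposited labels. The authors removed ribosomal RNA, sequenced paired ends, aligned them with STAR 2.6.1d (GRCm38), and deposited unnormalized read counts for each gene. The counting tool, annotation release and strand setting are not given in the sources used here, and the labels and the article name different library kits. Genes with at least 0.2 CPM in 2 libraries (19241) were tested in R 4.3.3 with edgeR 4.0.16 (TMM, quasi-likelihood test, Benjamini-Hochberg adjustment). Levels are CPM, with TMM-scaled library sizes. Ratios and single genes were also compared with two-sided exact permutation tests over 70 assignments, with 0.5 added to counts for ratios. The smallest chi-square per degree of freedom between libraries of a group was 7.85, so none were the same library sequenced again. Whether libraries were prepared from shared oocytes or RNA cannot be told from this value. Lengths, positions and 3′UTRs came from GENCODE vM21, which matched 99.4% of tested genes. The test was checked on simulated counts.

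The 6 genes, the lists and the rule for named genes were chosen with earlier results of these data known. Besides the 6 genes, named genes were Cnot7, Cnot8, a set of receptors, pathway genes and markers, up to 4 genes per list with the largest called change, no overlap and at least 1 CPM, and 3 genes most like each member. Bmp4, Bmp5, Gdf6, Mstn, Fgf1, Fgf13, Fgf18, Fgf20, Fgf21, Smad1, Txndc5, Fst, Inhba, Gli1, Ptprc and Cyp11a1 were named after their values were seen. A gene covered by the rule for named genes is not reported here. Alternatives were edgeR's exact test, DESeq2 1.42.0, other scalings and filters, the replicate number as a block, and leaving out libraries. Replicate numbers are shared by the groups, but same-numbered libraries did not deviate together.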

Additional observations from a re-analysis of the deposited data

Results flagged for a closer look

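Of 158 groups of 4 libraries examined over the genes named here and the lists' leading genes, 25 held a library that lay far from the other 3 by Dixon's test. For independent groups about 7.9 would be flagged by chance. These groups share the same libraries, and many of the genes were chosen by their values in them, so that number is no valid benchmark. None of the flagged groups belonged to Gdf9, Bmp15, Bmp6, Fgf8, Kit or Kitl, and 21 of the 25 were control replicate 1 or KO replicate 4.

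In control replicate 1 the distant values were high for Cnot7 (1049 CPM), Acvr2a (24.7 CPM), Tgfbr3 (67.9 CPM), Pik3r3 (200.4 CPM), Pdpk1 (304 CPM), Sos1 (8.96 CPM), Bmpr2 (188 CPM), Bmpr1a (158 CPM), Bmpr1b (378 CPM) and Arhgap19 (62.7 CPM). They were low for Zp3 (1284 CPM), Map3k6 (164 CPM) and Lsm7 (12.1 CPM). In KO replicate 4 they were high for Tgfbr1 (169 CPM), Pdpk1 (168 CPM), Sos1 (26.5 CPM), Bmpr1a (153 CPM) and Pik3ca (183 CPM), and low for Figla (10.2 CPM), Zp3 (1027 CPM) and Tmem102 (11.2 CPM). Outside these libraries, KO replicate 3 was high for Src (2.71 CPM) and Fgfr1 (10.2 CPM), and KO replicate 1 for Ptch1 (7.17 CPM) and Foxl2 (0.109 CPM, a single count).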

How the results depend on the processing

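Fgf8, Kit and Kitl kept direction and call under edgeR's exact test, DESeq2, 4 other scalings, 2 other filters, the replicate block and leaving out each library. Kit also passed the 2-fold limit without control replicate 3 (-1.06), control replicate 4 (-1.03) or KO replicate 4 (-1.17), but not without any other single library. The ranges without 1 library were -2.02 to -1.52 for Fgf8, -1.17 to -0.82 for Kit, 1.31 to 1.603 for Kitl, -0.43 to -0.29 for Bmp6, -0.18 to -0.01 for Bmp15 and -0.14 to 0.050 for Gdf9, which turned positive without KO replicate 4. With KO replicate 4 as the only KO library (an alternative added after seeing the data), Bmp6 (-0.21) and Kit (-0.38) no longer passed.

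Scaling by library totals alone turned Gdf9 to 0.21 and Bmp15 to 0.16, took Bmp6 to -0.078 without a call, and left 2618 genes called lower, 587 downregulated DEGs and 9 lower genes on the pathway lists. TMM on genes of at least 10 CPM gave 0.17, 0.13 and -0.11 for these genes, 2865 lower, 628 downregulated DEGs and 10 lower pathway genes. Upper quartile scaling gave 0.023 for Gdf9 and -0.27 for Bmp6, which then missed the threshold. Requiring 1 CPM or more in 4 libraries tests fewer genes and left 2882 upregulated DEGs.

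The replicate numbers did not pair the libraries (correlations of same-numbered deviations -0.07, -0.04, 0.11 and -0.12). With the number as a block, Bmp6 was at -0.36 (edgeR adjusted p = 0.0538), and the paired sign-flip test, whose smallest p is 0.125, gave differences of -1.67 for Fgf8 to Gdf9 and -2.42 for Kit to Kitl.

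In the exact permutation test of log2 CPM, library totals alone gave 0.20 for Gdf9, 0.16 for Bmp15, -0.078 for Bmp6, -1.47 for Fgf8 and -0.71 for Kit. TMM on genes of at least 10 CPM gave 0.17, 0.13, -0.11, -1.4996 and -0.74, and upper quartile scaling gave 0.016 for Gdf9 and -0.26 for Bmp6, all at or above an exact permutation p of 0.0571. Without 1 library the test gave -0.15 to 0.059 for Gdf9, -0.43 to -0.29 for Bmp6, -2.07 to -1.41 for Fgf8, 1.29 to 1.61 for Kitl and -1.16 to -0.86 for Kit, and p rose to 0.0571 for Bmp6, Fgf8 and Kit in 4 of 8 cases each. Without both control replicate 1 and KO replicate 4 the smallest possible p is 0.1, and differences were -0.32 for Bmp6, -1.75 for Fgf8, -1.04 for Kit and 1.58 for Kitl.

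The log2 ratio of Gdf9 to Bmp15 differed by -0.14 to 0.17 without 1 library, and by -0.0067 without both of those libraries. Fgf8 to Gdf9 ranged from -1.93 to -1.47 and was -1.73 without both, and Kit to Kitl ranged from -2.64 to -2.22 and was -2.63 without both. With the longest transcript as the length, Gdf9 was at 2455 and Kit at 32.1 CPM per kb.

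Over all alternatives, other named genes lost a call in 31 cases, 14 of them Zp3, and gained one in 5, and Grb2 was not called with the replicate block. Of the other named genes, these changed sign without being called in the report's fit. With library totals alone, log2 fold changes were 0.043 for Bmpr1b, 0.080 for Fgfr1, 0.043 for Pik3ca, 0.17 for Pin1rt1, 0.24 for Pced1b, 0.17 for Tmem102, 0.14 for Exoc4, 0.12 for Zfp788 and 0.19 for Tmem29. With TMM on genes of at least 10 CPM they were 0.014, 0.042, 0.012, 0.13, 0.20, 0.13, 0.11, 0.097 and 0.16 in the same order. Upper quartile scaling gave 0.058 for Pced1b and 0.0061 for Tmem29, and the stricter filter 0.031 for Pced1b. Without 1 library the ranges were -0.083 to 0.14 for Bmpr2, -0.052 to 0.17 for Acvr1, -0.22 to 0.050 for Pin1rt1, -0.13 to 0.11 for Pced1b, -0.22 to 0.012 for Tmem102 and -0.16 to 0.024 for Tmem29. Without both libraries that stood apart, Bmpr2 was at -0.021, Pced1b at 0.0047 and Tmem29 at 0.027.

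Depth did not limit the 6 genes, which had at least 93 counts in every library. The shallowest library, in which 3 counts make 0.347 CPM, limits receptors and ligands near or under 1 CPM. The causes of the changes with scaling were not tested beyond the shift of the median that each scaling brings.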

Other observations

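Among 14 markers of theca, stroma and blood, 10 were tested, and 3 were higher in CNOT7&8 KO oocytes (edgeR, adjusted p of at most 0.05), 0 lower, beside 31.2% of all genes higher. At an unadjusted p under 0.05, and by edgeR's exact test and DESeq2, 0 were lower as well. Ptch1, the receptor and a target gene of hedgehog signalling, was at 1.95 ± 0.462 CPM in controls and at 5.999 ± 0.785 CPM in KO oocytes (SD, n = 4), and the hedgehog effector Gli1 at 0.468 ± 0.225 and 1.43 ± 0.107 CPM. The leukocyte gene Ptprc was at 0.122 ± 0.147 and 0.616 ± 0.343 CPM. In KO replicate 4, Ptch1 was at 5.72 CPM and Gli1 at 1.29 CPM. The steroidogenic gene Cyp11a1 was at 1.80 ± 1.03 and 2.99 ± 0.460 CPM and was not called.

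On the oocyte marker list, 2 genes were higher and 9 lower of 14 tested (median log2 fold change -0.34), beside 31.2% and 24.1% of all genes. Of genes of at least 100 CPM, 55.2% were called lower with a median of -0.37, but not all listed markers reach that level (Figla was at 21.3 CPM in controls). With TMM on genes of at least 10 CPM, 3 of the markers were higher and 4 lower. The RNA helicase Ddx4 went from 71.7 ± 20.2 to 139 ± 14.1 CPM, the subcortical maternal complex gene Ooep from 1687 ± 64.8 to 914 ± 58.5 CPM and the chromatin protein gene Npm2 from 587 ± 53.6 to 380 ± 26.0 CPM.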
